A study of Homo sapiens with 12 samples.

Results

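The transcripts of 10 genes that encode subunits of the SWI/SNF chromatin remodelling complexes were followed in 12 RNA-seq libraries of colon cancer cells: the ATPases SMARCA4 and SMARCA2, the large DNA-binding subunits ARID1A, ARID1B and ARID2, the bromodomain subunit PBRM1, and the scaffold subunits SMARCB1, SMARCC1, SMARCC2 and SMARCD3. The genes were chosen by name as BAF and PBAF subunits and were matched by Ensembl identifier, 10 of the 60617 identifiers in the deposited values, and all 10 were among the 15692 genes that passed the filter on low counts. The cells were HCT 116p53-/-, a human colon carcinoma line, and a sub-line of it in which, according to the labels, RPL3 was knocked out and which the study calls uL3ΔHCT 116p53-/- and describes as stably silenced for uL3, the ribosomal protein that RPL3 encodes. Both lines share the genotype in that name. Each was treated for 24 h with 5 nM actinomycin D (Act D), a DNA-binding drug that at low doses blocks the synthesis of ribosomal RNA, or with vehicle, and each of the 4 groups had 3 libraries that the labels call biological replicates. How many clones the sub-line derives from is not given in the sources used here.

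SWI/SNF complexes use the energy of ATP to slide and evict nucleosomes, which opens enhancers and promoters to transcription factors. Complexes of the BAF and PBAF forms hold a single ATPase, either SMARCA4 (BRG1) or SMARCA2 (BRM). Their core has SMARCB1, a pair of SMARCC subunits (SMARCC1 and SMARCC2) and a member of the SMARCD family. The form called BAF adds ARID1A or ARID1B, and the form called PBAF adds ARID2 and PBRM1. Subunits of both forms are frequently mutated in human tumours, ARID1A among them in colorectal cancer.

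The labels were checked first. Total expected counts per library were between 10087925 and 21138886 (median 13613578). RPL3, the gene that the label says is knocked out, was at 1138 ± 15.3 CPM (read count scaled to library size after TMM normalization; mean ± SD, n = 3) in vehicle-treated HCT 116p53-/- cells and at 1242 ± 82.5 CPM in the vehicle-treated uL3Δ-labelled libraries, a log2 fold change of 0.13 that did not pass the test (edgeR, adjusted p = 0.155), so that these are called uL3Δ-labelled libraries, after their label alone, throughout. Of 10 intestinal epithelial markers, 7 were under 1 CPM in every HCT 116p53-/- library and 9 in every library labelled uL3Δ, and their summed level was 39.5 to 52.2 CPM in HCT 116p53-/- and 17.0 to 25.7 CPM in the uL3Δ-labelled libraries. CDX2 was at 14.2 to 23.5 CPM in HCT 116p53-/- libraries and at no more than 0.343 CPM in those labelled uL3Δ. The 8 general epithelial markers summed to 2663 to 2991 CPM in HCT 116p53-/- and to 1614 to 2009 CPM in the uL3Δ-labelled libraries, where CDH1 was under 1 CPM in all, while KRT18 was higher in these (804 to 984 CPM) than in HCT 116p53-/- (576 to 622 CPM). The 9 fibroblast markers summed to 7.85 to 14.8 CPM in HCT 116p53-/- and to 95.5 to 116.6 CPM in the uL3Δ-labelled libraries, where COL3A1 (50.4 to 69.5 CPM) and PDGFRA (22.7 to 33.5 CPM) made up most of it. COL1A1 was lower there (3.25 to 5.62 CPM) than in HCT 116p53-/- (6.61 to 12.1 CPM), and COL1A2, DCN, THY1 and FAP stayed under 1 CPM in both. The 10 airway and alveolar markers summed to at most 2.11 CPM in any library. The 6 leukocyte markers summed to 0.965 to 1.62 CPM in HCT 116p53-/- and to 5.30 to 9.14 CPM in the uL3Δ-labelled libraries, where LYZ was the only one at 1 CPM or more in any. The part of these differences in the results between the lines was not tested. In bulk RNA, fewer cells of a type and less RNA per cell cannot be told apart.

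Each of the pairs ARID1A with ARID1B and SMARCA4 with SMARCA2 holds alternative subunits, and the DNA just before their RefSeq start sites is shown. By CPM the transcripts of each pair did not move alike, and the part of this DNA in that was not tested. RefSeq (GRCh38.p14) gave 15 start sites for 7 of the 10 genes, and ARID2, SMARCC1 and SMARCC2 had no entry. The stretches lie on the plus strand, run 5′ to 3′ and are those bases of the 250 before one start site of each gene that no GENCODE v44 exon covers. Capitals mark the GC box, GGGCGG or CCGCCC on the other strand, the letters bound by Sp1-type factors.
ARID1A, chr1:26695765-26696014: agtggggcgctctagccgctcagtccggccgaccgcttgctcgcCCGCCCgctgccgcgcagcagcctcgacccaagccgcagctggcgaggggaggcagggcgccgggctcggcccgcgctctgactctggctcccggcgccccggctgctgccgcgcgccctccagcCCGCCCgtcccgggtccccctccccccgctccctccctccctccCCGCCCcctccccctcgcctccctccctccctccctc
ARID1B, chr6:156775776-156776019: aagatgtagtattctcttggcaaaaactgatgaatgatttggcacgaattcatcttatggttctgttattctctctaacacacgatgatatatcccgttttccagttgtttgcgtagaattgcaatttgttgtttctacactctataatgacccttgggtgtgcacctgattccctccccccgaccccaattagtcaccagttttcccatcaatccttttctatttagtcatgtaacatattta
SMARCA4, chr19:10960780-10960931: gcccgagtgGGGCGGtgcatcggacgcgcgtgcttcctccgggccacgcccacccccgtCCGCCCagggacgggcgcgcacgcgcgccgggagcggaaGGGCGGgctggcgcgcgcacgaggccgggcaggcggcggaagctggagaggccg
SMARCA2, chr9:2015097-2015185: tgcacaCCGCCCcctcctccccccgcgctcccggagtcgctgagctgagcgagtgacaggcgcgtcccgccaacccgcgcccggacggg
The ARID1A stretch was 80.4% G and C and held 3 GC boxes, whereas the ARID1B stretch was 38.5% G and C and held none. The second ARID1B start site lies within an annotated exon, so its window is not printed, and this window of 250 bases was 76% G and C with 4 GC boxes. The SMARCA4 stretch held 3 GC boxes and the SMARCA2 stretch 1. Over all 35116 RefSeq windows of 250 bases the median content of G and C was 58%, and 42.6% held a GC box, against 6 of the 15 windows of the SWI/SNF genes. The E-box CACGTG, which was in 6.34% of all windows, was found before PBRM1, and TATAAA on either strand, which was in 10.7%, was found before SMARCA2. The latter match lies in the window of another SMARCA2 start site (chr9:2021695-2021944), not in the stretch printed. These matches describe the letters alone.

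The levels of the 10 transcripts were compared per length as TPM (the length-scaled value that was deposited). In vehicle-treated HCT 116p53-/- cells SMARCB1 stood highest at 40.5 ± 2.58 TPM (SD, n = 3), above SMARCC1 at 29.8 ± 3.84 TPM and SMARCA4 at 25.7 ± 1.15 TPM, whose libraries overlapped. SMARCC2 at 15.5 ± 1.198 TPM and ARID1A at 13.8 ± 0.605 TPM followed and overlapped as well. PBRM1 at 7.56 ± 0.140 TPM, ARID2 at 6.74 ± 0.924 TPM, SMARCD3 at 5.75 ± 0.455 TPM and ARID1B at 5.74 ± 0.924 TPM each overlapped with the next. SMARCA2, the second ATPase, was lowest at 2.26 ± 0.597 TPM, below all libraries of ARID1B. With Act D the order of these cells ended with ARID1B, at 2.43 ± 0.551 TPM, which overlapped with SMARCA2 at 3.22 ± 0.794 TPM. In the vehicle-treated uL3Δ-labelled libraries SMARCA4 came first at 26.0 ± 10.7 TPM, but its libraries overlapped with those of SMARCB1 at 15.7 ± 3.20 TPM. SMARCB1 in turn overlapped with SMARCC1 at 14.4 ± 1.91 TPM, and SMARCA2 was last at 1.88 ± 0.688 TPM.

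**Figure D1:**
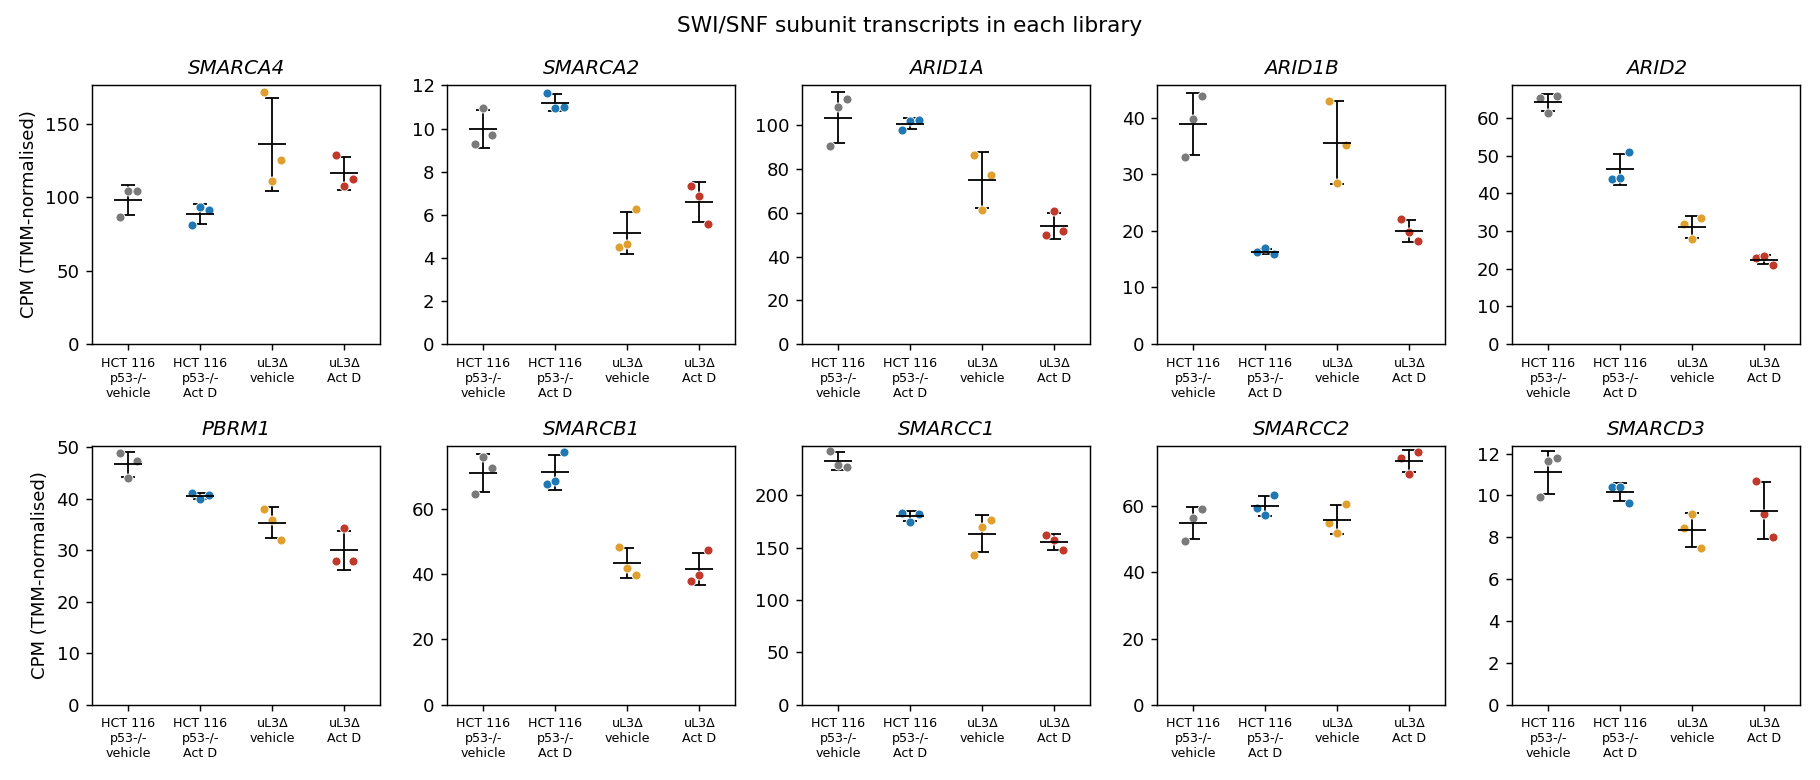
Normalised read count (CPM, linear axis from 0) of each of the 10 SWI/SNF subunit genes in each of the 12 libraries; each point is a library, and the bar and whiskers are the mean ± SD of the 3 libraries of a group. ARID2 fell into 4 separate levels, from 61.4 to 65.7 CPM in vehicle-treated HCT 116p53-/- cells down to 21.0 to 23.3 CPM in Act D-treated uL3Δ-labelled libraries, and SMARCC2 was highest, at 69.9 to 76.4 CPM, in the latter group (by TPM it was lower there than in Act D-treated HCT 116p53-/- cells).

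By CPM the ATPases differed between the lines in opposite directions, which the deposited TPM did not show. SMARCA4, the ATPase with the higher transcript level in these cells, was at 86.3, 104 and 104 CPM in replicates 1, 2 and 3 of vehicle-treated HCT 116p53-/- cells and at 172, 111 and 125 CPM in those labelled uL3Δ. The groups did not overlap, although replicate 1 of the latter stood well above the others. The log2 fold change was 0.47 ± 0.13 (SE; edgeR quasi-likelihood test, adjusted p = 0.00399). With Act D the values were 81.2, 93.7 and 91.4 CPM against 129, 108 and 113 CPM, again without overlap and with a log2 fold change of 0.39 ± 0.13 (adjusted p = 0.0137). This difference depended on scaling, and with library size alone it was 0.23 with vehicle (adjusted p = 0.169) and 0.15 with Act D (adjusted p = 0.377). The call with Act D was also lost without replicate 1 of Act D-treated HCT 116p53-/- cells (adjusted p = 0.0675) or replicate 1 of the Act D-treated uL3Δ-labelled libraries (adjusted p = 0.0747). By TPM SMARCA4 was at 25.7 ± 1.15 in HCT 116p53-/- cells and 26.0 ± 10.7 in the uL3Δ-labelled libraries with vehicle, and at 21.7 ± 3.12 and 20.2 ± 2.94 with Act D, with overlap under both treatments. SMARCA2, the alternative ATPase, was at 9.27, 10.9 and 9.72 CPM in vehicle-treated HCT 116p53-/- cells and at 4.50, 4.65 and 6.28 CPM in the uL3Δ-labelled libraries, 0.516 of the former level (log2 fold change -0.96 ± 0.16, adjusted p = 3.11e-05). The difference was -0.75 ± 0.16 with Act D (adjusted p = 0.000411), where the libraries were at 11.6, 10.96 and 11.02 CPM against 7.35, 6.85 and 5.57 CPM, so that every library labelled uL3Δ was below every HCT 116p53-/- library. By TPM SMARCA2 overlapped between the lines with vehicle (2.26 ± 0.597 and 1.88 ± 0.688) and was lower without overlap in the uL3Δ-labelled libraries with Act D (3.22 ± 0.794 and 1.51 ± 0.335). Neither ATPase passed the test for Act D in either line. The log2 fold change of SMARCA2 with Act D was 0.17 in HCT 116p53-/- (adjusted p = 0.478), where the groups did not overlap, and 0.37 in the uL3Δ-labelled libraries (adjusted p = 0.181), where they did. That of SMARCA4 was -0.15 and -0.22 (adjusted p = 0.487 and 0.316), with overlap in both lines.

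ARID1A and ARID1B, the alternative ARID subunits of BAF, behaved unlike each other. ARID1B had the largest response to Act D among the 10 genes. In HCT 116p53-/- cells it was at 33.1, 39.8 and 43.9 CPM with vehicle and at 16.2, 16.9 and 15.9 CPM with Act D, so that it fell by 58.0% (log2 fold change -1.25 ± 0.14, adjusted p = 7.93e-06). In the uL3Δ-labelled libraries it was at 43.1, 28.5 and 35.2 CPM with vehicle and at 22.0, 19.9 and 18.2 CPM with Act D, so that it fell by 43.2% (-0.81 ± 0.14, adjusted p = 0.000968). The groups did not overlap in either line, and the call held in all 13 alternative fits of each comparison. Between the lines ARID1B did not pass the test with vehicle (log2 fold change -0.14, adjusted p = 0.372) or with Act D (0.30, adjusted p = 0.0812). It passed with vehicle when scaled by library size alone (-0.37, adjusted p = 0.0346) or without replicate 1 of the vehicle-treated uL3Δ-labelled libraries (-0.29, adjusted p = 0.0481), and with Act D when only the groups compared were fitted (0.31, adjusted p = 0.0227).

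ARID1A was at 90.5, 108 and 112 CPM in vehicle-treated and at 97.9, 102 and 102 CPM in Act D-treated HCT 116p53-/- cells, groups that overlapped (log2 fold change -0.04, adjusted p = 0.855). In the uL3Δ-labelled libraries it was at 86.7, 61.3 and 77.2 CPM with vehicle and at 49.7, 60.6 and 51.7 CPM with Act D, which did not overlap by a narrow margin, and it fell by 28.0% (-0.47 ± 0.12, adjusted p = 0.0143). This call was lost without replicate 1 of the vehicle-treated (-0.36, adjusted p = 0.0658) or of the Act D-treated uL3Δ-labelled libraries (-0.42, adjusted p = 0.0724). Against HCT 116p53-/- cells ARID1A was lower in the uL3Δ-labelled libraries, at 0.722 of their level with vehicle (-0.47 ± 0.12, adjusted p = 0.00148) and 0.535 with Act D (-0.90 ± 0.12, adjusted p = 2.62e-06), without overlap in either comparison.

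ARID2 and PBRM1, the PBAF subunits among the 10 genes, were lower in the uL3Δ-labelled libraries under both treatments. ARID2, which takes the place of ARID1A or ARID1B in PBAF, had the largest difference between the lines among the 10 genes. With vehicle it was at 65.3, 61.4 and 65.7 CPM in HCT 116p53-/- cells and at 32.0, 27.9 and 33.6 CPM in the uL3Δ-labelled libraries, 0.484 of the former level (log2 fold change -1.05 ± 0.10, adjusted p = 1.89e-08). With Act D it was at 43.8, 44.2 and 51.0 CPM against 22.8, 23.3 and 21.0 CPM, a log2 fold change of -1.05 ± 0.10 (adjusted p = 4.55e-08). With Act D ARID2 fell by 27.9% in HCT 116p53-/- cells (-0.47 ± 0.09, adjusted p = 0.00166) and fell by 28.0% in the other line (-0.47 ± 0.10, adjusted p = 0.00497). The 4 groups did not overlap with each other, and each of these calls held in all 13 alternative fits. PBRM1, whose bromodomains read acetylated histones, was between 44.005 and 48.8 CPM in vehicle-treated HCT 116p53-/- cells and between 32.1 and 38.1 CPM in the uL3Δ-labelled libraries (-0.40 ± 0.10, adjusted p = 0.00131). With Act D the ranges were 39.9 to 41.0 CPM and 27.8 to 34.4 CPM (-0.44 ± 0.10, adjusted p = 0.000949). The log2 fold change of PBRM1 with Act D was -0.20 in HCT 116p53-/- cells (adjusted p = 0.166), with groups that did not overlap, and -0.24 in the uL3Δ-labelled libraries (adjusted p = 0.149), with groups that did. The latter passed with library size alone (-0.35, adjusted p = 0.0475) and without replicate 2 of the Act D-treated uL3Δ-labelled libraries (-0.37, adjusted p = 0.0360).

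Of the core subunits, SMARCB1 and SMARCC1 were lower in the uL3Δ-labelled libraries. SMARCB1, which anchors the complex to the nucleosome, was at 64.6, 75.8 and 72.6 CPM in vehicle-treated HCT 116p53-/- cells and at 48.4, 41.98 and 39.9 CPM in the uL3Δ-labelled libraries, 0.611 of the former level (log2 fold change -0.71 ± 0.10, adjusted p = 7.60e-06). With Act D it was at 67.6, 68.6 and 77.4 CPM against 38.0, 39.6 and 47.3 CPM (-0.78 ± 0.11, adjusted p = 3.80e-06), so that the lines did not overlap under either treatment. Its log2 fold change with Act D was 0.00 in HCT 116p53-/- cells and -0.06 in the uL3Δ-labelled libraries (adjusted p = 0.991 and 0.772), the smallest of the 10 genes in each line.

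SMARCC1 and SMARCC2 are paralogous scaffold subunits. SMARCC1 was at 243, 229 and 227 CPM in vehicle-treated HCT 116p53-/- cells and at 183, 175 and 183 CPM with Act D, so that it fell by 22.6% without overlap (-0.37 ± 0.08, adjusted p = 0.00463). In the uL3Δ-labelled libraries it was at 143, 169 and 177 CPM with vehicle and at 162, 157 and 148 CPM with Act D, groups that overlapped (-0.07, adjusted p = 0.670). The difference between the lines was -0.51 ± 0.08 with vehicle (adjusted p = 2.83e-05) and -0.21 ± 0.08 with Act D (adjusted p = 0.0347). The latter was lost without replicate 1 of Act D-treated HCT 116p53-/- cells (adjusted p = 0.0859) or replicate 3 of the Act D-treated uL3Δ-labelled libraries (adjusted p = 0.0609). SMARCC2 was at 49.5, 56.5 and 59.1 CPM with vehicle and at 59.4, 57.5 and 63.4 CPM with Act D in HCT 116p53-/- cells, with overlap (0.13, adjusted p = 0.372). In the uL3Δ-labelled libraries it was at 55.1, 51.9 and 60.6 CPM with vehicle and at 74.5, 69.9 and 76.4 CPM with Act D, a rise of 31.8% without overlap (0.40 ± 0.09, adjusted p = 0.00719). This was the only rise with Act D past the test among the 10 genes in either line, and with library size alone it did not pass (0.30, adjusted p = 0.0564). Between the lines SMARCC2 differed by 0.02 with vehicle (adjusted p = 0.841) and by 0.29 ± 0.09 with Act D (adjusted p = 0.00772). That call was lost with library size alone (0.05, adjusted p = 0.657) and without replicate 3 of the Act D-treated uL3Δ-labelled libraries (0.23, adjusted p = 0.0622). By TPM the direction was the opposite: SMARCC2 was lower in the uL3Δ-labelled libraries without overlap, at 15.5 ± 1.198 against 9.85 ± 1.53 with vehicle and at 15.4 ± 0.713 against 12.1 ± 1.45 with Act D.

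SMARCD3, a bridge between the complex and DNA-binding factors, was the lowest of the core subunits by TPM, and stood at 9.92 to 11.8 CPM in vehicle-treated HCT 116p53-/- cells and 7.49 to 9.11 CPM in the uL3Δ-labelled libraries. The log2 fold change was -0.41 ± 0.14 (adjusted p = 0.0139), which was lost without replicate 3 of either vehicle-treated group (adjusted p = 0.0502 for HCT 116p53-/- and 0.0661 for uL3Δ). With Act D the lines overlapped by CPM, at 9.65 to 10.4 CPM and 8.00 to 10.7 CPM (-0.12, adjusted p = 0.478). By TPM SMARCD3 was lower in the uL3Δ-labelled libraries without overlap under both treatments. It was at 5.75 ± 0.455 against 2.93 ± 0.261 with vehicle and at 4.66 ± 0.364 against 3.34 ± 0.889 with Act D. The log2 ratios of these means were -0.97 and -0.48, beside medians of -0.48 and -0.49 for all genes. The response of SMARCD3 to Act D passed the test in neither line (-0.13 in HCT 116p53-/- and 0.16 in the uL3Δ-labelled libraries, adjusted p = 0.574 and 0.536). By TPM it was lower with Act D without overlap in HCT 116p53-/- cells (log2 ratio -0.30) and overlapped in the uL3Δ-labelled libraries (0.19).

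**Figure D2:**
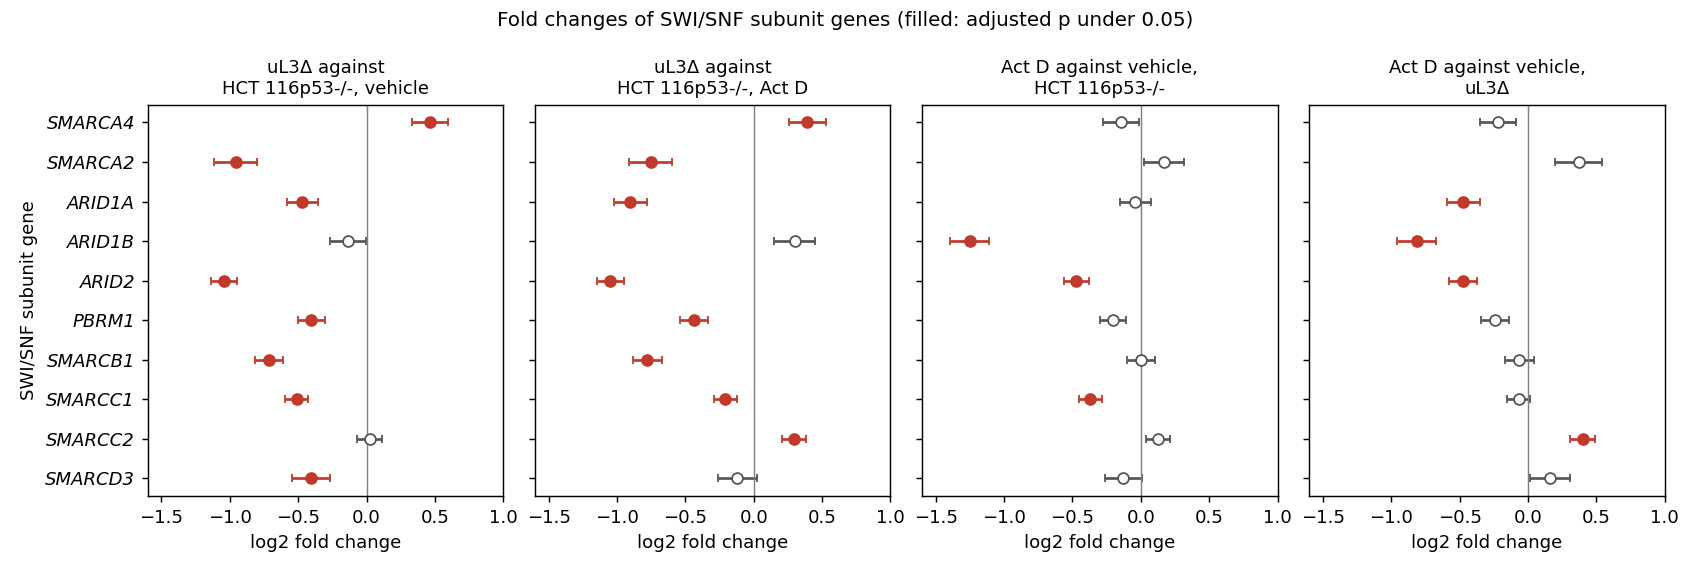
Log2 fold change (x axis) of each of the 10 genes in the 4 comparisons, with bars for the standard error from edgeR's quasi-likelihood fit of all 12 libraries; filled red points have an adjusted p under 0.05. SMARCA4 lay to the right of 0 in both comparisons between the lines, at 0.47 and 0.39 (under library-size scaling alone the values were 0.23 and 0.15 and did not pass, and by TPM the lines overlapped), and ARID1B lay farthest to the left with Act D, at -1.25 in HCT 116p53-/- cells and -0.81 in the uL3Δ-labelled libraries.

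Counted together, 8 of the 10 genes differed between the lines with vehicle, 1 higher (SMARCA4) and 7 lower in the uL3Δ-labelled libraries, where 71.3% of all genes tested differed, 35.1% higher and 36.2% lower. With Act D 8 differed again, 2 higher (SMARCA4 and SMARCC2, neither of which was higher by TPM) and 6 lower, beside 70.4% of all genes, 35.1% higher and 35.3% lower. The share of SWI/SNF genes that differed was therefore near that of all genes. Their median log2 fold change was -0.44 with vehicle and -0.32 with Act D, and that of all genes was -0.02 in both. Groups did not overlap for 8 of the 10 genes with vehicle (1 higher and 7 lower), beside 72.5% of all genes (35.5% higher and 37% lower). With Act D they did not overlap for 9 (3 higher and 6 lower), beside 74.1% (36.5% higher and 37.6% lower).

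With Act D 3 of the 10 genes (ARID1B, ARID2 and SMARCC1) fell in HCT 116p53-/- cells and 0 rose, beside 18.7% of all genes tested, 7.59% higher and 11.1% lower. By DESeq2 0 of the 10 rose as well, and in edgeR 0 rose at an unadjusted p under 0.05. In the uL3Δ-labelled libraries 3 fell (ARID1A, ARID1B and ARID2) and 1 rose (SMARCC2), beside 11.9% of all genes, 3.51% higher and 8.4% lower. The median of the 10 genes was -0.14 in each line, and that of all genes was 0.02 in HCT 116p53-/- cells and 0.03 in the uL3Δ-labelled libraries. Groups did not overlap for 5 genes in HCT 116p53-/- cells (1 higher and 4 lower), beside 38.2% of all genes (18.2% higher and 20% lower). The uL3Δ-labelled groups did not overlap for 4 (1 higher and 3 lower), beside 27.6% (12.8% higher and 14.8% lower).

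The direction of the counts depended on scaling for the genes that were higher. Scaling by library size alone moved the median of all genes between the lines from -0.02 to -0.26 under both treatments, and the genes called changed from 5501 higher and 5684 lower to 4202 and 6974 with vehicle, and from 5503 and 5540 to 4244 and 6825 with Act D. Of the 10 SWI/SNF genes 0 were then higher and 8 lower with vehicle, and 0 higher and 6 lower with Act D. For Act D the same scaling moved the median to -0.08 in HCT 116p53-/- cells, where the genes called changed from 1191 higher and 1748 lower to 551 and 2309, and to -0.07 in the uL3Δ-labelled libraries, where they changed from 551 and 1318 to 227 and 1858. Upper-quartile scaling gave 944 higher and 1012 lower for the latter. Of the SWI/SNF genes 3 fell in HCT 116p53-/- cells and 4 in the uL3Δ-labelled libraries with library size alone, and with the upper quartile the counts were as reported above in all 4 comparisons.

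The deposited TPM, described by the ratio of group means without a test, moved the scale further. Over the genes tested with a TPM in both groups, the median log2 ratio between the lines was -0.48 with vehicle and -0.49 with Act D, and that of the 10 genes was -0.84 and -0.80. With vehicle 7 of the 10 were lower in the uL3Δ-labelled libraries without overlap and 0 higher, and with Act D 8 and 0, beside 47.8% lower and 18.9% higher of all genes with vehicle and 50.3% and 19.3% with Act D. ARID2 again had the largest difference with vehicle (-1.51), but with Act D ARID1A did (-1.40). The TPM of SMARCC2 gave -0.66 and -0.36, the first below and the second above the median of all genes. For Act D the medians of all genes were -0.04 in HCT 116p53-/- cells and -0.06 in the uL3Δ-labelled libraries. By TPM 5 of the 10 genes were lower with Act D without overlap in HCT 116p53-/- cells and 0 higher, beside 17.2% lower and 9.09% higher of all genes. In the uL3Δ-labelled libraries 2 (ARID1A and ARID1B) were lower and 0 higher, beside 9.71% and 5.42%, and ARID2 (-0.23) and SMARCC2 (0.29) overlapped.

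The responses of the lines to Act D were compared with each other by the interaction term, which asks whether the effect of the drug differed between them. By edgeR 0 of the 10 genes passed, beside 6.53% of all genes tested (3.3% higher and 3.23% lower), and 0 passed by DESeq2. At an unadjusted p under 0.05 there were 4, namely ARID1A (log2 difference -0.43 ± 0.17, adjusted p = 0.134), SMARCC1 (0.30 ± 0.12, adjusted p = 0.144), ARID1B (0.44 ± 0.20, adjusted p = 0.218) and SMARCC2 (0.27 ± 0.13, adjusted p = 0.230). ARID1A passed without a filter on low counts (-0.47, adjusted p = 0.0408) and without replicate 2 of the vehicle-treated uL3Δ-labelled libraries (-0.57, adjusted p = 0.0358). ARID2 responded with nearly equal size in the lines, with a difference of 0.00 ± 0.13. The calls of ARID1A, SMARCC1 and SMARCC2 in a single line are therefore not shown to differ between the lines.

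A BAF or PBAF complex takes either of the ATPases and one of the ARID subunits, whereas SMARCC1 and SMARCC2 can sit in the same complex. The share of one subunit in the summed TPM of the related subunits was described for each group, without a test. ARID1B made up 29.3 ± 2.55% of ARID1A and ARID1B in vehicle-treated HCT 116p53-/- cells and 15.5 ± 2.75% with Act D, and its libraries did not overlap. Among the uL3Δ-labelled libraries the share was 42.2 ± 0.752% with vehicle and 36.0 ± 3.86% with Act D, above every HCT 116p53-/- library. With CPM per kb of a length fixed at the median of the libraries, the 4 mean shares of ARID1B were 33.8, 18.1, 39.1 and 33.6% in the same order, so that the last was no longer above that of vehicle-treated HCT 116p53-/- cells. SMARCC2 made up 34.4 ± 4.54% of SMARCC1 and SMARCC2 in vehicle-treated HCT 116p53-/- cells, 40.6 ± 1.93% with Act D, 40.6 ± 0.589% in the vehicle-treated uL3Δ-labelled libraries and 47.7 ± 1.42% in those with Act D. ARID2 made up 25.6 ± 2.81% and 23.0 ± 1.59% of the 3 ARID subunits in HCT 116p53-/- cells with vehicle and with Act D, and 15.9 ± 1.87% and 20.1 ± 3.58% in the uL3Δ-labelled libraries. SMARCD3 had mean shares of 5.29 to 7.35% of the summed SMARCD1, SMARCD2 and SMARCD3.

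The share of SMARCA2 among the ATPases depended on how length was counted. From TPM it was 8.04 ± 1.85% and 13.2 ± 4.396% in HCT 116p53-/- cells with vehicle and with Act D, and 6.90 ± 1.83% and 7.15 ± 2.43% in the uL3Δ-labelled libraries, with overlap. From CPM per kb of the fixed length it was 11.01% and 13.4% in HCT 116p53-/- cells, against 4.55% and 6.44% for uL3Δ-labelled ones. By TPM SMARCA4 was the main ATPase transcript in every library.

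**Figure D3:**
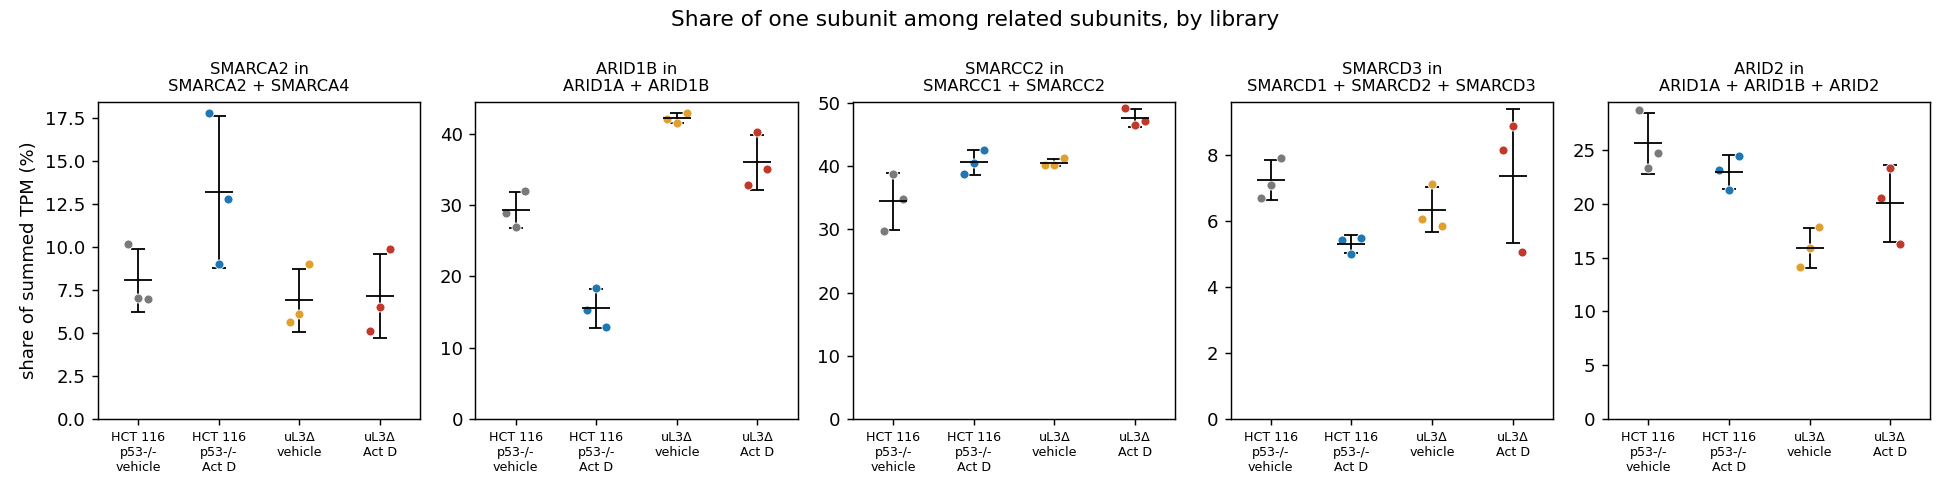
Share (%, from summed TPM, linear axis from 0) of one subunit among related subunits in each library; each point is a library, and the bar and whiskers are the mean ± SD of 3 libraries. The share of ARID1B was lowest in Act D-treated HCT 116p53-/- cells, at 12.9 to 18.4%, and highest in the vehicle-treated uL3Δ-labelled libraries, at 41.5 to 43.0%.

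The 10 genes differ widely in span, from 27.2 kb for SMARCC2 (chr12:56162359-56189567) to 434.8 kb for ARID1B (chr6:156776020-157210779), by GENCODE v44 on hg38. ARID1B, the longest, had the largest fall with Act D in both lines, and SMARCC2, the shortest, had the only rise past the test, in the uL3Δ-labelled libraries. SMARCC1 at 196.8 kb (chr3:47585269-47782106) and ARID2 at 178.3 kb (chr12:45729706-45908040) fell in HCT 116p53-/- cells. SMARCA2, the second longest at 213.3 kb (chr9:1980290-2193624), gave log2 fold changes of 0.17 and 0.37 that did not pass the test, and ARID1A at 88.9 kb (chr1:26693236-26782104) fell in the uL3Δ-labelled libraries. The others were PBRM1 at 140.6 kb (chr3:52545352-52685917), SMARCA4 at 118.5 kb (chr19:10960932-11079426), SMARCB1 at 51.1 kb (chr22:23786931-23838009) and SMARCD3 at 39.1 kb (chr7:151238764-151277896). The part of the span in the response was not tested.

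**Figure D4:**
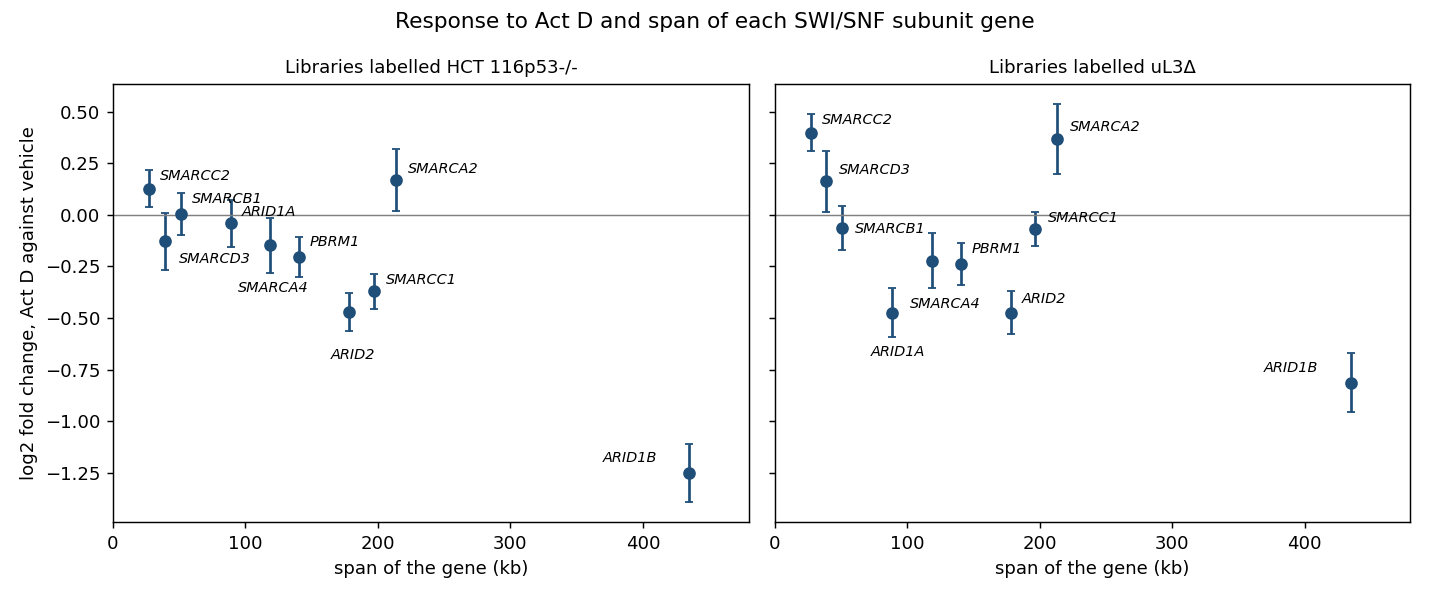
Span of each gene (kb, x axis, GENCODE v44 on hg38) against its log2 fold change with Act D (y axis, bars are the standard error), at left in HCT 116p53-/- cells and at right in the uL3Δ-labelled libraries; each point is 1 of the 10 genes. ARID1B stood apart at 434.8 kb with -1.25 and -0.81, while SMARCA2 at 213.3 kb was above 0 in both.

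The other subunits of the complexes were followed as a list of 21 genes, of which 20 passed the filter and ACTL6B did not. Against HCT 116p53-/- cells 7 of the 20 were higher and 10 lower with vehicle, and 4 and 10 with Act D, beside 35.1% higher and 36.2% lower of all genes with vehicle and 35.1% and 35.3% with Act D. With library size alone the counts were 3 higher and 12 lower with vehicle, and 3 and 11 with Act D. Of all 15692 genes, 4202 were then higher and 6974 lower with vehicle, and 4244 and 6825 with Act D. In the main fit the median log2 fold change of the 20 subunits was -0.39 with vehicle and -0.52 with Act D. That of all genes was -0.02 in both. With library size alone the median of the subunits was -0.63 with vehicle and -0.76 with Act D, beside -0.26 for all genes in both. ACTL6A (BAF53A), an actin-related subunit, had the smallest p of the list between the lines, at 41.5 ± 4.02 CPM in vehicle-treated HCT 116p53-/- cells and 179 ± 15.9 CPM in those labelled uL3Δ (2.11 ± 0.10, adjusted p = 2.50e-12), and with Act D its log2 fold change was 2.15 ± 0.10 (adjusted p = 2.65e-12). SMARCE1 (BAF57), a core subunit with an HMG box, went the other way, from 135 ± 14.4 CPM in HCT 116p53-/- cells to 58.5 ± 4.97 CPM with vehicle (-1.20 ± 0.09, adjusted p = 1.21e-09) and by -1.27 ± 0.09 with Act D (adjusted p = 8.26e-10). BICRAL, a subunit of the non-canonical GBAF form, was at 23.5 ± 3.12 CPM against 6.87 ± 0.620 CPM with vehicle (-1.78 ± 0.14, adjusted p = 3.13e-09). BCL11B, a transcription factor that joins BAF, was at 1.85 to 3.79 CPM in Act D-treated HCT 116p53-/- cells and had no count in the 3 Act D-treated uL3Δ-labelled libraries.

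With Act D 2 of the 20 rose and 4 fell in HCT 116p53-/- cells, and 0 rose and 3 fell in the uL3Δ-labelled libraries, beside 18.7% and 11.9% of all genes that passed in either direction. In HCT 116p53-/- cells DESeq2 called 4 higher and 3 lower and upper-quartile scaling 3 and 3, beside 19.5% and 19.1% of all genes in either direction. In the uL3Δ-labelled libraries DESeq2 called 0 higher and upper-quartile scaling 1, beside 609 and 944 of all genes called higher. BRD9, the bromodomain subunit of GBAF, fell in both lines, from 41.2 ± 3.43 to 24.9 ± 3.39 CPM in HCT 116p53-/- cells (-0.73 ± 0.12, adjusted p = 0.000234) and from 49.8 ± 5.60 to 28.4 ± 2.12 CPM in the uL3Δ-labelled libraries (-0.81 ± 0.12, adjusted p = 0.000188). BICRAL (-0.72 ± 0.13, adjusted p = 0.000971) and BCL7A (-0.65 ± 0.14, adjusted p = 0.00344) fell in HCT 116p53-/- cells. BCL7B (-0.42 ± 0.10, adjusted p = 0.0111) and SS18L1 (-0.52 ± 0.14, adjusted p = 0.0201) fell in the uL3Δ-labelled libraries, and the call of SS18L1 was lost without replicate 1 (adjusted p = 0.0719) or 2 (adjusted p = 0.0755) of the Act D-treated ones. SS18L1 also passed in HCT 116p53-/- cells (-0.37 ± 0.13, adjusted p = 0.0482), a call that held in 7 of 19 alternatives. By the interaction term 0 of the 20 passed in edgeR, beside 6.53% of all genes, 6 at an unadjusted p under 0.05, and 0 in DESeq2, so that none was shown to respond differently in the lines.

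**Figure D5:**
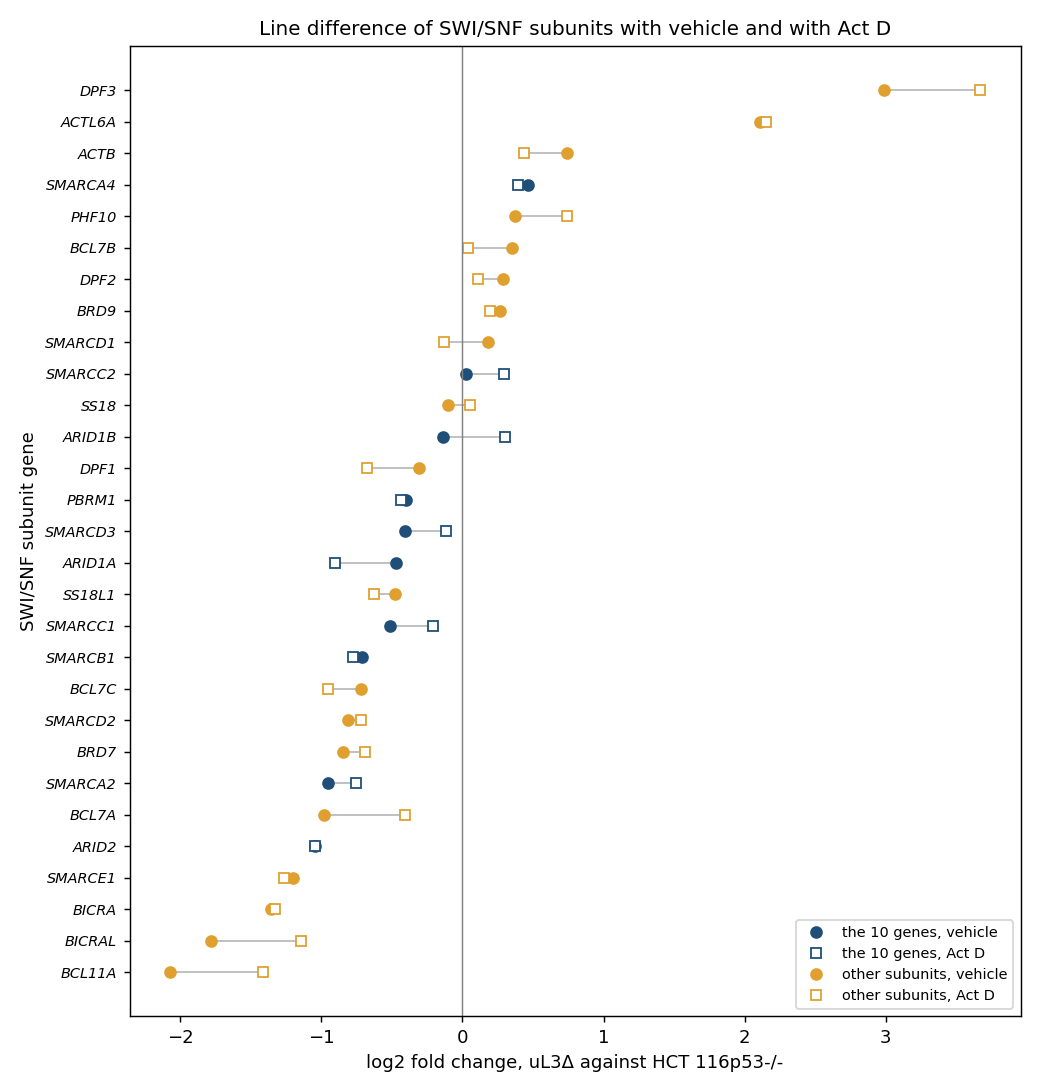
Log2 fold change between the lines (x axis, uL3Δ against HCT 116p53-/-) of the 10 genes and of 19 other SWI/SNF subunits (y axis, sorted by the value with vehicle), with filled circles for vehicle and open squares for Act D. ACTL6A lay near 2.1 under both treatments and ARID2 near -1.05; BCL11B, below -3, is not drawn.

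The pattern of ARID2, the gene with the largest line difference, was set against all genes tested by Pearson's r of log2(CPM + 0.5) over the 12 libraries, as a description of libraries that fall into 4 groups. The highest were ZNF827 (r = 0.998), CNOT1 (r = 0.993) and USP31 (r = 0.992). Reads shared with other genes bore little on the 10 genes, since the posterior standard deviation that RSEM gives for a count was at most 0.358% of it for any of them in the 11 libraries that have one.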

How the data were processed

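RNA of 12 libraries, 3 in each of 4 groups taken from the labels, was sequenced as paired ends (NovaSeq). Per the labels and the study's methods, the authors trimmed adapters, discarded rRNA and other contaminants and quantified Ensembl genes of hg38 with RSEM 1.2.25. They deposited RSEM expected counts, fractional values without normalization, and TPM, which RSEM scales by transcript length to a fixed total. An effective length and a posterior standard deviation of the count were deposited beside them. Values were per gene for 11 libraries and per transcript for vehicle-treated HCT 116p53-/- replicate 2, where they were summed per gene. Whether counting used strand is not given in the sources used here, so reads of overlapping antisense genes cannot be told apart.

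Expected counts were rounded, filtered by group with filterByExpr (15692 of 33990 genes with a count) and scaled by TMM. A single model with the 4 groups as coefficients was fitted in edgeR 4.0.16 (R 4.3.3), and every adjusted p is from its quasi-likelihood test with Benjamini-Hochberg adjustment over the genes tested, at a threshold of 0.05. The fit was tested on simulated data. Alternatives were DESeq2 1.42.0, library size alone and upper-quartile scaling, no filter, at least 1 CPM in 3 or more libraries (14917 genes), the replicate block, a fit of only the groups compared, a log2 threshold of 1, and each library left out. Shares of paralogues used TPM, and the comparisons of the 10 genes were also described by TPM. Named genes were the 10 SWI/SNF genes, RPL3, up to 3 genes with the smallest p per list and comparison, and the 3 genes most like the one with the largest line difference. Some results that this rule names are not reported here. The 10 genes and the lists were chosen with earlier results of these data known. The label calls replicates biological and says no more, so p-values measure the spread between these libraries. Of the 60617 identifiers, 60261 were matched to GENCODE v44.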

Additional observations from a re-analysis of the deposited data

Results flagged for a closer look

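Among the other ATP-dependent remodellers, a list of 17 genes kept beside the SWI/SNF subunits, 2 genes responded to Act D differently in the lines by the interaction term, beside 6.53% of all genes tested. INO80, the ATPase of the complex that carries its name, had a log2 difference of -0.6775 ± 0.15 (SE, edgeR, adjusted p = 0.0109), a call that held in all 18 alternatives. It fell with Act D in both lines, by 0.63 on the log2 scale in HCT 116p53-/- cells, from 71.3 ± 2.74 to 46.2 ± 2.48 CPM (n = 3 each, adjusted p = 0.000212), and by 1.30 on the log2 scale in the libraries labelled uL3Δ, from 36.6 ± 4.81 to 14.8 ± 1.31 CPM (n = 3 each, adjusted p = 1.97e-06). CHD1, a remodeller bound to transcribed genes, had a log2 difference of -0.5112 ± 0.13 (adjusted p = 0.0260). This call held in 11 of 18 alternatives, with a highest adjusted p of 0.0658, and was lost with the replicate block (adjusted p = 0.0545) and when any one of 6 of the libraries was left out. Act D took CHD1 from 138 ± 11.3 to 116 ± 9.003 CPM in HCT 116p53-/- cells (adjusted p = 0.0602) and from 121 ± 6.32 to 70.9 ± 7.06 CPM in the libraries labelled uL3Δ (adjusted p = 4.29e-05). Dixon's test of a library far from the others was not applied, since every group had 3 libraries.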

How the results depend on the processing

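Of 700 values of the 10 genes under the alternatives, 679 kept their side of the threshold, and 14 lost and 7 gained a call, which are given with each gene. Of the values called in the main fit or in the alternative, 0 reversed direction. Among values called in neither, changes of sign were not counted. They occurred, as for SMARCB1 with Act D in HCT 116p53-/- cells (log2 fold change -0.10 to 0.05 over the alternatives). When calls also needed a log2 fold change of 1 or more, 1 of the 10 genes was called between the lines with vehicle, 1 between the lines with Act D, 1 for Act D in HCT 116p53-/- cells and 0 for Act D in uL3Δ-labelled libraries. The share of all genes past that threshold was not counted, so these counts have nothing to be set against. Without a filter on low counts 1 gene passed the interaction, beside 4.03% of all genes. With each library left out in turn, the counts were 7 to 9 between the lines with vehicle, 6 to 9 between the lines with Act D, 3 to 3 for Act D in HCT 116p53-/- cells, 3 to 5 for Act D in uL3Δ-labelled libraries and 0 to 1 for the interaction. In the same order, 66.3 to 70.6%, 65.5 to 70.3%, 11.4 to 21.0%, 7.93 to 11.7% and 3.83 to 6.08% of all genes were then called.

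Libraries with the same replicate number did not deviate together: the correlation of their deviations from the group means was between -0.104 and 0.101 over 12 pairs of libraries, 2 of which correlated best with their own number, so the numbers do not pair the libraries. With the replicate block 8, 7, 3, 4 and 0 genes were called in the 5 comparisons in the order above, and SMARCC1 between the lines with Act D was lost (-0.21, adjusted p = 0.0585). Groups of 3 libraries limit the smallest difference that could be called, and SMARCA2 and SMARCD3, the genes with the lowest CPM, had the largest standard errors between the lines with vehicle.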

Other observations

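Other chromatin regulators were counted in the same way, with no test of the lists themselves. Of 17 other ATP-dependent remodellers, 0 rose and 6 fell with Act D in HCT 116p53-/- cells, and 2 rose and 4 fell in uL3Δ-labelled libraries, beside 18.7% and 11.9% of all genes that passed the test in either direction. With library size alone the counts were 0 and 7, and 0 and 5. Of all 15692 genes, 551 then rose and 2309 fell in HCT 116p53-/- cells, and 227 rose and 1858 fell in uL3Δ-labelled libraries. SMARCAD1, a remodeller of the INO80-like class, fell by 36.8% and by 47.2% (edgeR, adjusted p = 3.13e-05 and 7.26e-06, n = 3 in each group). CHD7, a remodeller of enhancers, fell by 46.8% and by 45.1% (adjusted p = 1.26e-05 and 3.03e-05), and it was higher in uL3Δ-labelled libraries by a log2 fold change of 1.495 with vehicle and 1.54 with Act D (adjusted p = 3.93e-10 and 6.15e-10).

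Of 21 Polycomb subunits, the repressors that SWI/SNF opposes at many genes, 2 rose and 3 fell with Act D in HCT 116p53-/- cells, and 3 rose and 4 fell in uL3Δ-labelled libraries, beside the same shares of all genes. With library size alone 1 rose and 7 fell in the former, beside 551 and 2309 of all genes, and 0 rose and 4 fell in the latter, beside 227 and 1858. JARID2, which recruits the methylating complex PRC2, fell from 55.7 ± 2.94 to 17.7 ± 1.24 CPM in HCT 116p53-/- cells and from 41.2 ± 4.51 to 16.3 ± 2.73 CPM in uL3Δ-labelled libraries (log2 fold changes -1.65 and -1.32, adjusted p = 8.10e-08 and 3.45e-06). EZH2, the methyltransferase of PRC2, fell by 26.3% in HCT 116p53-/- cells (adjusted p = 0.00120). CBX2, a chromodomain subunit of PRC1, was at 59.8 ± 5.27 CPM in vehicle-treated HCT 116p53-/- cells and at 20.4 ± 1.68 CPM in vehicle-treated uL3Δ-labelled libraries (-1.55, adjusted p = 5.56e-10).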
